A study of Mus musculus with 18 samples.

Results

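The 10 genes described here encode the contractile and cytoskeletal proteins of smooth muscle: Acta2, Actg2, Myh11, Myl9, Tagln, Cnn1, Smtn, Lmod1, Des and Synm. They were chosen by name as smooth muscle contractile genes, with no threshold on their values, and are 10 of the 24062 genes in the count table. All 10 had enough reads to be among the 14271 genes tested. RNA was sequenced from 18 intestinal tumours of male C57BL/6 mice, 1 tumour per numbered mouse. All mice carried the ApcMin/+ allele, which gives intestinal adenomas, so every comparison is between tumours that share it. The groups differed at Macrod2, a gene for an enzyme that removes ADP-ribose from proteins: 6 large intestinal tumours were Macrod2+/+ (wt), 5 were Macrod2-/+ (het) and 6 were Macrod2-/- (hom). A further het tumour, het 4, came from the small intestine; as wt and hom had none from there, it was kept out of all comparisons. The sources used here do not give the mice's ages, the part of Macrod2 that was deleted or the site of each tumour along the large intestine. Each tumour is named below by its genotype and mouse number.

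Smooth muscle contracts when filaments of smooth muscle myosin pull on actin filaments, after phosphorylation of the myosin regulatory light chain. Calponin, transgelin, smoothelin and leiomodin bind or build the actin filaments, and desmin and synemin form the intermediate filaments that tie them together. In the intestine these genes are expressed in the muscularis propria, the thin muscularis mucosae under the epithelium, the walls of vessels and, for Acta2 and Tagln, in pericytes and myofibroblasts. In a resected tumour, RNA from any of these cells is mixed with that of the epithelium.

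Many smooth muscle genes are switched on by serum response factor, which binds the CArG box, a pair of C bases, a stretch of A and T bases and a pair of G bases. RefSeq promoters (GRCm38.p6, 250 bases before the start site) were available for 7 of the 10 members and were searched on both strands. A perfect CArG box was found in 1 of 7, that of Myl9, against 1.31% of 20291 promoters of genes in the table. With 1 mismatch allowed, 4 of 7 held at least 1 box (Acta2, Lmod1, Myl9 and Synm), against 17.5% of those promoters. The TEAD site CATTCC was found in 3 of 7 (Acta2, Lmod1 and Smtn; 11.8% of the others), and the E-box CANNTG in 5 of 7 (62.8%). No motif overlapped another in these windows. The promoters of Actg2, Myh11 and Tagln were not among the sequences used. Of the promoters with a box, those of Acta2 (chr19:34255374-34255623, minus strand), Lmod1 (chr1:135324563-135324812, plus strand) and Myl9 (chr2:156775214-156775463, plus strand) are shown because each holds a pair of CArG-like words. Capitals mark the CArG boxes with at most 1 mismatch.
Acta2: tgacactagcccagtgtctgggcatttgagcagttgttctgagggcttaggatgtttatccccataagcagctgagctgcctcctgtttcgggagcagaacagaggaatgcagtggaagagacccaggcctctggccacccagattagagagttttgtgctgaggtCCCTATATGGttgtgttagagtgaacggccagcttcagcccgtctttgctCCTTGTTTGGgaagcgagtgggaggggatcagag
Lmod1: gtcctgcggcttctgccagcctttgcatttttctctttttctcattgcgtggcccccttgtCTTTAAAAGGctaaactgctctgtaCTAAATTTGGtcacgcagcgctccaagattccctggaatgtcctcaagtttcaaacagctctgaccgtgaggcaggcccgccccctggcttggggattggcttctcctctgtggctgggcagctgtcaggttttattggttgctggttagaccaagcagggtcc
Myl9: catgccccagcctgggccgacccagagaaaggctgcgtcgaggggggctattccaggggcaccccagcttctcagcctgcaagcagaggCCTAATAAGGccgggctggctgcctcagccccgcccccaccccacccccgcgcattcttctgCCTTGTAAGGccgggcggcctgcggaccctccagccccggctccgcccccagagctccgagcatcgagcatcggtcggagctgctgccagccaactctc

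The libraries held 13529204 to 20857918 counts, with a count in 16207 to 17154 genes, and the 10 members together made up 0.0168% to 0.0599% of the counts of a large intestinal tumour. The Macrod2 gene itself had 0 to 8 counts in the hom tumours against 32 to 75 in wt and 32 to 61 in het. The hom tumours were thus set apart from both, as their labels give, while wt and het overlapped. Several libraries stood apart. The 45S ribosomal gene Rn45s took 27.0% of the counts of wt 3 and at most 0.725% elsewhere. Gata4, a transcription factor of the small intestine, was at 171 and 179 CPM (counts scaled to a common library size) in wt 1 and wt 2, against 0.282 to 47.3 in the other 15 large intestinal tumours and 166 in het 4. Gata4 and Rn45s were singled out after their values were seen.

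Levels between genes were compared per length, in the authors' RPKM (reads scaled to gene length and library size). Over the 17 large intestinal tumours, Myl9, the regulatory light chain, was highest at 83.5 ± 51.7 RPKM (SD), and was above Tagln in 16 of 17 tumours. Tagln (transgelin, 22.2 ± 7.33) was above Acta2 in 16 of 17. The vascular and intestinal actins Acta2 (15.5 ± 2.85) and Actg2 (15 ± 7.49) were not separated, with Acta2 higher in 11 of 17 tumours. Des (7.50 ± 3.95), Smtn (7.23 ± 1.14), Cnn1 (5.18 ± 3.72) and Myh11 (3.07 ± 1.44) followed, and Des and Smtn were likewise not separated, with Des higher in 7 tumours. Synm (0.533 ± 0.338) and Lmod1 (0.393 ± 0.195) were lowest, and their order held in 12 tumours.

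Within a gene, tumours are compared as CPM scaled for library composition. In such bulk samples, fewer cells of a type and less RNA per cell cannot be told apart. Acta2, the actin of vascular smooth muscle and myofibroblasts, was at 33.8, 43.1 and 49.1 CPM (lowest, median and highest) in the 6 wt tumours and 25.9, 45 and 47.8 in the 6 hom tumours. The 5 het tumours were at 35.6, 38.2, 30.8, 44.8 and 35.9 CPM. The groups overlapped, and hom 3 was lowest of all. Acta2 varied 1.89-fold between the lowest and highest tumour. Actg2, the enteric actin, was at 7.53, 21.0 and 50.3 CPM in wt, at 12.7, 18.5, 16.3, 21.9 and 16.4 in het, and at 6.68, 18.4 and 28.1 in hom. Its highest tumour was wt 5 and its lowest hom 3, a 7.53-fold range with no separation of the genotypes.

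Myh11, the smooth muscle myosin heavy chain, was at 8.02, 24.3 and 36.1 CPM in wt, 10.1, 11.9, 20.2, 22.1 and 15.9 in het, and 8.87, 21.0 and 41.2 in hom. Its highest tumour was hom 1 and its lowest wt 2. The light chain Myl9 was at 30.8, 100 and 220 CPM in wt, 100, 146, 33.6, 37.0 and 47.5 in het, and 35.9, 90.2 and 156 in hom. Here too each genotype spanned low and high tumours, the lowest being wt 6 and the highest wt 5, a range of 7.15-fold.

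The actin-binding Tagln was at 26.7, 32.6 and 63.3 CPM in wt, 26.7, 27.1, 26.8, 41.2 and 36.7 in het, and 15.2, 36.6 and 47.7 in hom. Calponin 1 (Cnn1), an inhibitor of the actin-activated myosin ATPase, was at 4.01, 10.8 and 34.9 CPM in wt, 3.98, 6.91, 8.89, 14.7 and 11.1 in het, and 1.71, 7.52 and 14.9 in hom. Wt 5 was highest and hom 3 lowest for both, with a 4.17-fold range for Tagln and 20.3-fold for Cnn1, the widest of the 10. Smoothelin (Smtn), found with actin stress fibres, varied 1.96-fold, from 16.8 CPM in hom 3 to 32.8 in wt 5. Leiomodin 1 (Lmod1), which nucleates actin filaments, was low, at 0.438 CPM in wt 4 to 3.15 in hom 1, from 6 to 67 counts, so its values carry the most counting error.

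Desmin (Des), the main intermediate filament protein of muscle, was at 16.6, 22.4 and 56.1 CPM in wt, 11.7, 12.7, 23.3, 31.7 and 20 in het, and 4.91, 21.7 and 39.6 in hom. It ranged 11.4-fold between hom 3 and wt 5. Its partner synemin (Synm) ranged 10.4-fold, from 1.12 CPM in hom 3 to 11.7 in hom 1. The extremes were shared: wt 5 was highest for 7 of the 10 genes and among the top 3 for all 10, hom 1 was highest for Myh11, Lmod1 and Synm, and hom 3 was lowest for 7 and among the bottom 3 for 9. Desmin relative to Acta2, both in RPKM, was 0.959 in wt 5 and 0.159 in hom 3. In the small intestinal tumour het 4, Acta2 was at 27.3, Des at 14.8, Cnn1 at 6.21 and Myl9 at 54.1 CPM, each within the range of the large intestinal tumours.

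**Figure D1:**
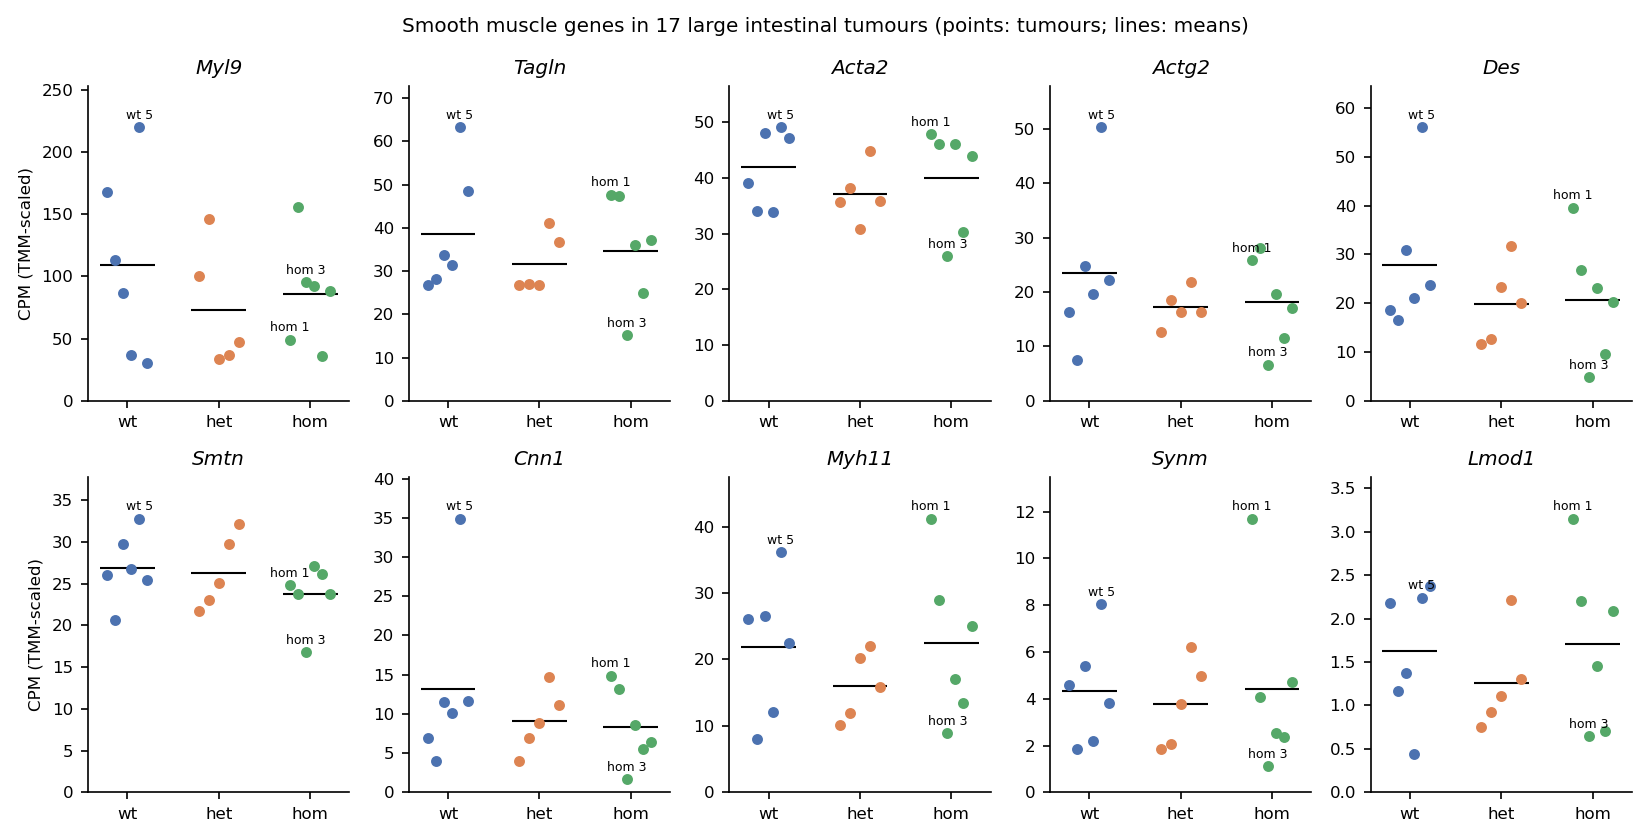
Level of each of the 10 smooth muscle genes in CPM (vertical axis) by Macrod2 genotype (horizontal axis); points are tumours and lines are group means. The 3 large intestinal genotypes overlap in every panel, and wt 5 is the highest point for 7 genes.

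Of the 10 members, 8 varied more between tumours than the median gene. The SD of log2(CPM + 0.5) over the 17 tumours had a median of 0.676 over the 10 members and 0.319 over the genes tested, and 0.704 against 0.315 after genotype means were removed. It was highest for Myl9 (0.919, above 95.6% of genes tested), Cnn1 (0.891) and Des (0.79). Acta2 (0.276) and Smtn (0.233) were the exceptions, below the median gene, with 39.4% and 28.1% of genes having a lower SD. No p is given for these comparisons.

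No member passed the test between genotypes. In edgeR's quasi-likelihood test with Benjamini-Hochberg adjustment over the 14271 genes, 0 members were called in het against wt, where the background was 0% of genes (percent called) and 0 members had an unadjusted p under 0.05 (background 2.85%: 1.18% higher and 1.67% lower). In hom against wt, 0 members were called and 0 had an unadjusted p under 0.05, with backgrounds of 0.00701% and 16% (5.35% higher and 10.6% lower). In hom against het the members again gave 0 and 0, with backgrounds of 0.00701% and 2% (0.974% higher and 1.03% lower). DESeq2 and limma-voom also called 0 members in each comparison. The one gene called in each comparison with hom was Macrod2.

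All 10 estimates were below 0 in het against wt, where 56.8% of genes were below and 43.2% above. Their median was -0.43 on the log2 scale, against -0.03 over all genes. The estimates ranged from -0.62 for Myl9 (95% interval -1.75 to 0.51) and -0.55 for Cnn1 (-1.67 to 0.57) to -0.06 for Smtn (-0.36 to 0.25), each with an adjusted p of 0.9995 in edgeR. Actg2 was at -0.47 (-1.29 to 0.35), and the interval was narrower for Acta2, at -0.20 (-0.55 to 0.15). The 10 estimates are not independent, since 9 of the genes were correlated across tumours. Without wt 5, 7 estimates were below 0 and 3 above, and their median was -0.11. The 6 endothelial markers, from cells that line the vessels, were also all below 0 in het against wt (median -0.50; 0 called and 1 with an unadjusted p under 0.05 in edgeR). In the same comparison the fibroblast list had 7 of 10 estimates above 0 (median 0.06) and the pericyte list 4 of 7 tested (0.04). The myofibroblast and telocyte list had 8 of 9 tested above 0 (0.10). The mean of the endothelial genes' centred log2 levels was 0.75 in wt 1, 1.11 in wt 2 and -0.30 in wt 5. The members' mean was 0.17, -0.47 and 1.06 in these tumours. The part of these lists in the members' estimates was not tested.

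In hom against wt, 7 of 10 estimates were below 0 (54.3% of genes below, 45.7% above), with a median of -0.19. Cnn1 was at -0.67 (-1.74 to 0.39; edgeR adjusted p = 0.491), Des at -0.45, Actg2 at -0.39 and Myl9 at -0.38. Smtn was at -0.21 (-0.50 to 0.08; edgeR adjusted p = 0.440). Lmod1, Myh11 and Synm were at 0.04, 0.01 and 0.01. Without wt 5 the split was 6 below and 4 above, and the median was -0.01. Without wt 1 and wt 2, the tumours with high Gata4, it was 9 below and 1 above, and the median was -0.21.

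In hom against het, which shares the hom tumours with the previous comparison, 8 of 10 estimates were above 0 (48.2% of genes above, 51.8% below), with a median of 0.12. Myh11 was at 0.48 (-0.35 to 1.31) and Lmod1 at 0.44, and Cnn1 and Smtn were below 0 at -0.12 and -0.15, each with an edgeR adjusted p of 0.9998. Without hom 1 the split was 5 and 5, with a median of -0.02. Without hom 2 it was also 5 and 5, with a median of -0.01. Without hom 3 it was 9 above and 1 below, with a median of 0.26. Two-sided exact permutation tests on log2(CPM + 0.5), run gene by gene, gave p from 0.214 to 0.97 over the members and comparisons, before adjustment.

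**Figure D2:**
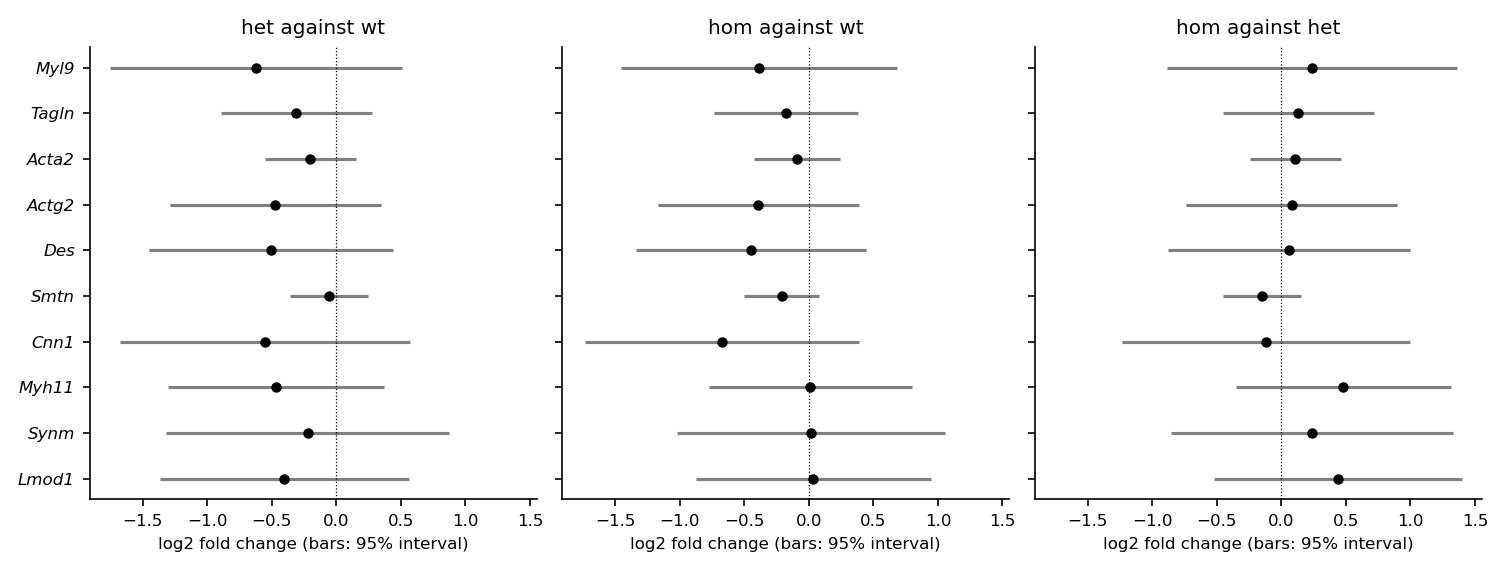
Log2 fold change (horizontal axis) of the 10 smooth muscle genes (vertical axis) with 95% intervals from edgeR, in the 3 comparisons between genotypes. Each interval includes 0, and all 10 estimates lie below 0 in het against wt.

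Across the 17 tumours 9 of the 10 genes moved together by Pearson's r, with Smtn less so by rank, while Myl9 did not. Of 45 pairs, 35 had a Benjamini-Hochberg adjusted permutation p under 0.05 for Pearson's r of log2(CPM + 0.5), with 100000 resamples, and 31 for Spearman's rho. The strongest was Actg2 with Cnn1 (r = 0.945, rho = 0.897, permutation p = 1e-05 for each, the smallest possible, adjusted p = 6.43e-05 for r and 9e-05 for rho). Without wt 5 and hom 3, the 2 tumours farthest from the median of Actg2, r was 0.873. Cnn1 with Des gave r = 0.93 and rho = 0.934 (permutation p = 1e-05 for each, adjusted 6.43e-05 and 9e-05; r = 0.838 without hom 3 and wt 5). Myh11 with Synm gave r = 0.917 and rho = 0.88 (permutation p = 1e-05 for each, adjusted 6.43e-05 and 9e-05; r = 0.901 without wt 2 and hom 3).

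All 9 pairs with Myl9 failed the threshold. Their r lay between -0.166 with Smtn and 0.213 with Acta2, and the lowest adjusted permutation p was 0.499. Of the other 36 pairs, 35 passed for r, with a median r of 0.79. The exception was Lmod1 with Smtn (r = 0.355, rho = 0.304, permutation p = 0.163 and 0.236, adjusted p = 0.204 and 0.296; 0.519 without wt 4 and hom 1). For rho, Smtn also failed with Acta2 (adjusted permutation p = 0.0917), Actg2 (0.0537), Myh11 (0.0917) and Tagln (0.116). Myl9 was singled out after its values were seen. Its r with the mean of the other 9 members was 0.044, against 0.671 (Smtn) to 0.906 (Des) for the rest. Subtracting genotype means left 35 pairs past the threshold (median r = 0.76).

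The joint movement rested in part on the 2 extreme tumours. Leaving out wt 5 and hom 3 from every pair, added after the data were seen, left 27 of 45 pairs past the threshold. The median r was then 0.641, against 0.752 in all tumours. Leaving out, pair by pair, the 2 tumours farthest from the median of the pair's first gene also left 27 pairs (median r = 0.641). Those 2 tumours differed between pairs. Pairs of Smtn were among those that dropped: Tagln with Smtn went from r = 0.668 to 0.256, and Des with Smtn from 0.738 to 0.4. Without wt 1 and wt 2, an alternative added after the data were seen, 33 pairs passed.

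**Figure D3:**
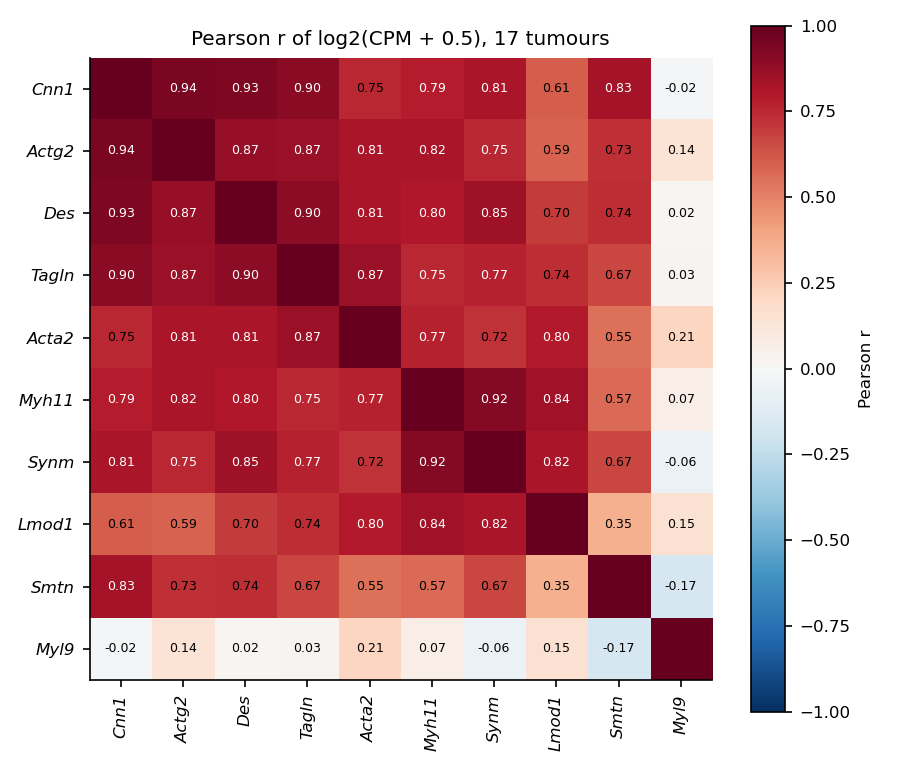
Pearson's r of log2(CPM + 0.5) between each pair of the 10 genes (both axes) over 17 large intestinal tumours, coloured by r. The row of Myl9 lies between -0.166 and 0.213, while the other 36 pairs lie between 0.355 and 0.945.

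**Figure D4:**
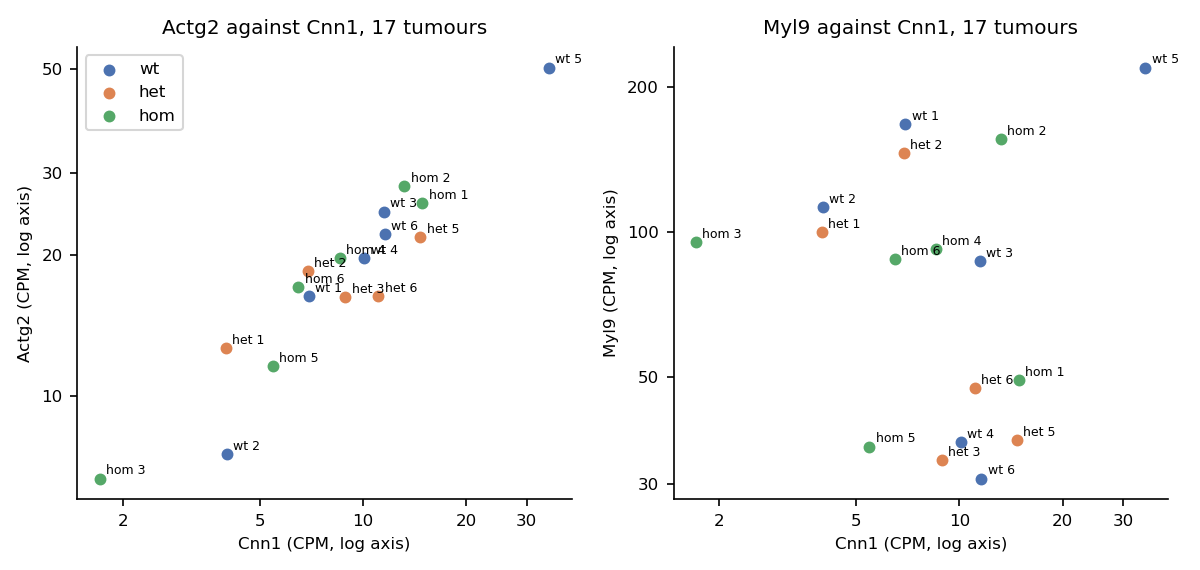
Actg2 and Myl9 (vertical axes, CPM, log scale) against Cnn1 (horizontal axis, CPM, log scale), 1 point per large intestinal tumour. Actg2 rises with Cnn1 (r = 0.945), and Myl9 shows no such trend (r = -0.021).

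Some other genes of the contractile apparatus followed the members, and others did not. Of 13278 genes ranked by r with the mean of the 10 members, over 17 tumours and given as a description, the closest were the tropomyosin Tpm2 (r = 0.917; 0.85 without wt 5 and hom 3) and Pgm5, a phosphoglucomutase-like protein of muscle adhesions (0.889; 0.906). Pdlim3, a muscle protein of the Z-disc, had r = 0.79. Dzip3 (0.807), Swap70 (0.806) and Rad50 (0.805) were next in order after Pgm5. Without wt 5 and hom 3, r was 0.625 for Pdlim3, 0.666 for Dzip3, 0.618 for Swap70 and 0.558 for Rad50. Nusap1, Aspm, Kif18a and Kif15, which serve the mitotic spindle, had r of 0.787, 0.784, 0.783 and 0.782, which were 0.513 to 0.559 without wt 5 and hom 3. Of the most abundant genes of a list of 27 further contractile and cytoskeletal genes, Csrp1 had r = 0.552, and Tpm1, Flna and Actn1, which are also abundant in epithelium, had 0.097, 0.098 and 0.064. Srf, the serum response factor gene, had r = 0.008. It is 1 of 9 transcriptional regulators of smooth muscle ranked, whose r ranged from -0.352 to 0.467 (median -0.267), with 3 above 0 and 6 below. Jph2 (0.761) and Synpo2 (0.688) were singled out after their values were seen.

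None of these lists had a member past the threshold between genotypes in edgeR's test. Of the 27 further contractile and cytoskeletal genes, 25 were tested: 14 estimates were above 0 in het against wt, 17 in hom against wt and 20 in hom against het, with medians of 0.04, 0.16 and 0.11, beside 43.2%, 45.7% and 48.2% of all genes above 0. In that list 0, 3 and 2 had an unadjusted p under 0.05, beside 2.85%, 16% and 2% of all genes. Of 12 transcriptional regulators of smooth muscle, 9 were tested, and 7 estimates were above 0 in each comparison, with medians of 0.06, 0.19 and 0.17. Of those regulators 2, 1 and 1 had an unadjusted p under 0.05, beside the same shares of all genes. Rbpms2, an RNA-binding protein of visceral smooth muscle precursors, singled out after its values were seen, was at -1.01 in het against wt (edgeR adjusted p = 0.9995) and -1.09 in hom against wt (adjusted p = 0.258).

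Markers of the other cells a tumour can hold were read beside the members. Epithelial genes dominated: Krt8 averaged 2000 and Epcam 1440 RPKM, and the 10 epithelial markers summed to 6100 to 11600 RPKM in wt, 7390 to 9280 in het and 7770 to 9570 in hom. The 10 fibroblast and matrix genes, led by Dcn at 44.3 and Sparc at 42.1 RPKM, summed to 140 to 222 in wt, 147 to 214 in het and 149 to 307 in hom. The 10 members summed to 103 to 353, 95.3 to 197 and 85.3 to 241. These sums give much weight to Myl9, which did not move with the other 9 members. Myl9 was 204 of 353 RPKM in wt 5, 88.0 of 122 in hom 3 and 28.5 of 120 in wt 6. The 8 pericyte and vascular smooth muscle markers, of which 7 were tested, were led by Rgs5 (4.97) and Mcam (4.77) and summed to 10.8 to 25.1, 12.5 to 25.4 and 10.7 to 27.7. The 6 endothelial markers, led by Cdh5 and Pecam1, summed to 8.78 to 53.1, 8.88 to 21.2 and 13.3 to 36.8. All groups overlapped in each list. Between genotypes 0 genes of these lists were called by edgeR. In hom against wt the fibroblast list had 9 of 10 estimates above 0 (median 0.51, 5 with an unadjusted p under 0.05 in either direction). Those 5 include Fbln1, the gene below 0, at -0.58 (edgeR adjusted p = 0.258). The myofibroblast and telocyte list had 9 of 9 tested above 0 (median 0.53, 1 gene with an unadjusted p under 0.05). Over all genes 45.7% of estimates were above 0 and 16% had an unadjusted p under 0.05, and the 10 members had a median of -0.19.

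The lists ran together in some tumours and apart in others. Each list was scored as the mean of its genes' centred log2 levels. Wt 5, the highest tumour for the members (1.06), was the lowest of the large intestinal tumours for the fibroblast list (-0.62), the myofibroblast and telocyte list (-0.81) and the epithelial list (-0.60), and was at -0.27 for pericytes. Hom 3, lowest for the members (-1.03), was also lowest for pericyte and vascular smooth muscle genes (-0.55) and was at -0.31 for fibroblast genes. Hom 1, second highest for the members (0.60), was second highest for pericyte genes (0.63) and at 0.36 for fibroblast genes. Hom 6, highest for fibroblast (0.77) and pericyte genes (0.74), was at 0.12 for the members. Their part in the genotype comparisons was not tested. The r of single markers with the mean of the members ranged from -0.687 to 0.009 over the 10 epithelial genes (median -0.37), with Krt8 at -0.561 and Epcam at -0.119. It ranged from -0.245 to 0.479 over the 10 fibroblast genes (median 0.105) and from -0.286 to 0.49 over 7 pericyte genes (median 0.285), the highest of these being Rgs5. Over the 6 endothelial genes it ranged from -0.154 to 0.23 (median -0.063). For the 9 myofibroblast and telocyte genes ranked, it ranged from -0.493 to 0.391 (median -0.123), with 7 below 0 and 2 above. These are values within 17 tumours that share 1 scaling per library, which ties the lists' levels to each other.

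The striated muscle list was mixed. Its fast light chain Mylpf averaged 3.58 RPKM (2.01 to 5.32), Acta1, the skeletal actin, 0.68 and Ckm, muscle creatine kinase, 0.315. The skeletal myosin heavy chains Myh1 and Myh4, named because they define the cell type, had 0 counts in all 17 large intestinal tumours, and Myh2 at most 1 count. The 10 striated muscle markers, of which 4 were tested, summed to 2.74 to 6.62 RPKM over the 3 genotypes. Of the markers of interstitial cells of Cajal, the pacemaker cells of the muscle layer, Ano1 averaged 23.8 and Kit 4.39 RPKM, whereas Etv1 was at 0.106.

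**Figure D5:**
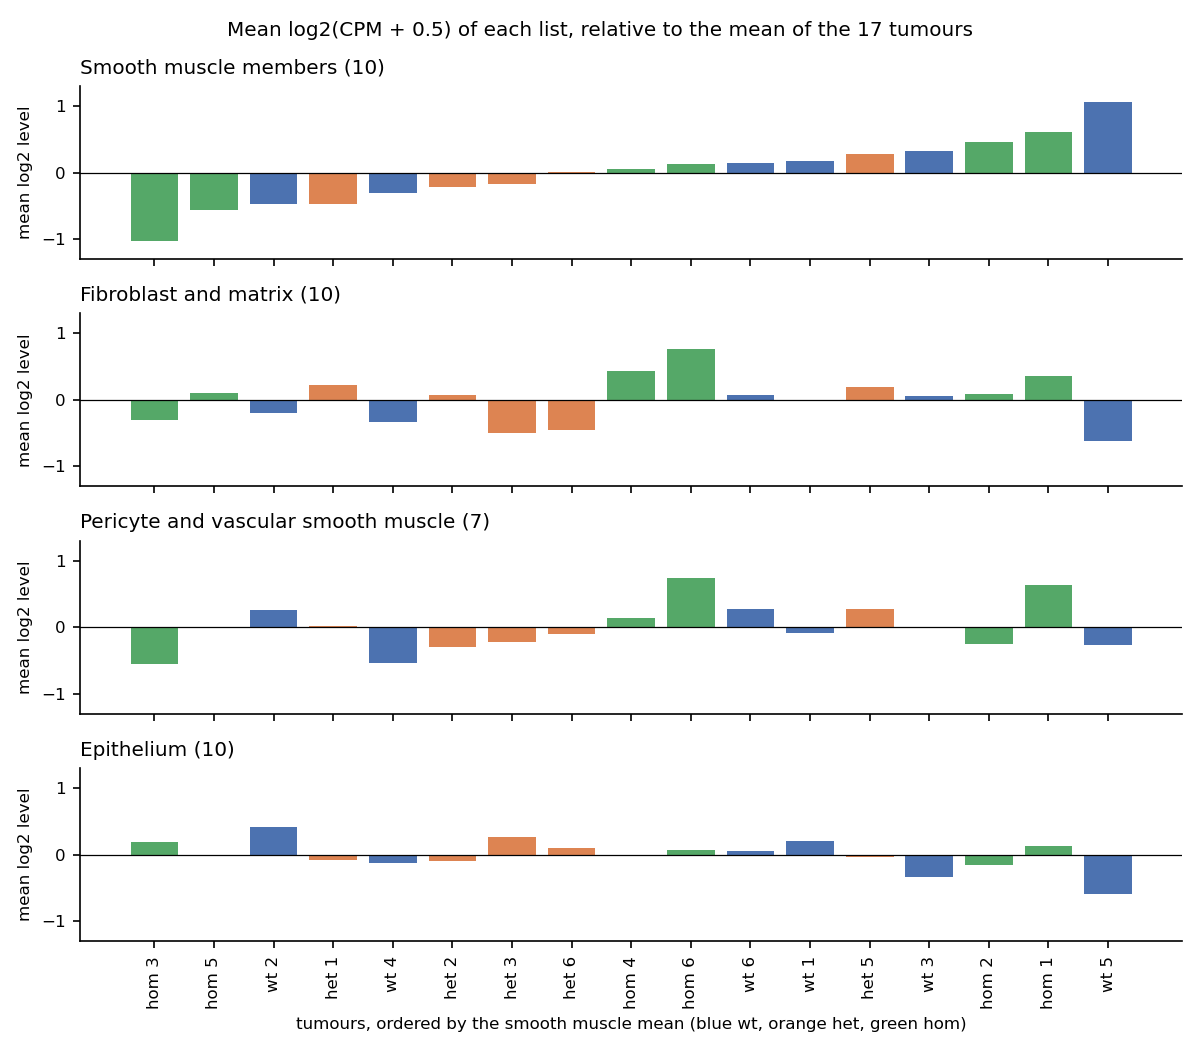
Mean centred log2 level (vertical axis) of the smooth muscle, fibroblast, pericyte and epithelial gene lists in each large intestinal tumour (horizontal axis), ordered by the smooth muscle mean. Wt 5 has the highest smooth muscle mean and the lowest fibroblast and epithelial means.

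In mm10 (GENCODE M21 annotation), Des and Lmod1 lie on chromosome 1 and Tagln and Cnn1 on chromosome 9, and each other member on a chromosome of its own. The genes span chr1:75360329-75368579 (Des), chr1:135324807-135368065 (Lmod1), chr9:22099216-22109630 (Cnn1) and chr2:156775420-156781658 (Myl9) on the plus strand. On the minus strand are chr19:34241090-34255590 (Acta2), chr6:83512905-83536265 (Actg2), chr16:14194535-14291372 (Myh11), chr11:3517523-3540612 (Smtn) and chr7:67730160-67759742 (Synm), with Tagln. Of the 1988 exonic bases of Tagln (chr9:45929619-45936058), 1241 overlap the antisense gene Gm48529 and 108 overlap Pcsk7, both on the opposite strand. Exons of Smtn overlap the opposite-strand genes Gm11946 over 714 and Gm11947 over 39 of 4380 bases. Exons of Des overlap Gm15179 over 220 of 3754 bases, and those of Synm overlap Gm45102 over 426 and Ttc23 over 84 of 7933 bases. Of these partners Pcsk7, Gm15179 and Ttc23 have a row in the count table. The sources do not say whether counting used the strand, and without it reads of the partner genes in these stretches cannot be told apart from those of the members. The transcripts compared of Acta2 and Actg2 share no identical run longer than 29 bases. With other actin genes the longest runs were 47 bases for Acta2 with Actb and 38 for Actg2 with Actc1.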

How the data were processed

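RNA from 18 tumours was sequenced, per the labels' protocols after total RNA extraction and a stranded total RNA library kit; the labels name polyA RNA as the molecule. The deposited counts per gene were made by the authors from trimmed reads (Trimmomatic) aligned to mm10 by TopHat and counted by featureCounts (Subread 1.4.5-p1), per the submitters' processing notes. The strand setting was not found in the sources. The authors also deposited RPKM values, used for levels between genes, with a pseudocount of 0.1 on the log scale. Genes were filtered by filterByExpr and tested with edgeR 4.0.16 (TMM factors, robust quasi-likelihood fit, adjusted p under 0.05) on 17 large intestinal tumours of 3 genotypes in one fit. DESeq2 1.42.0 and limma 3.58.1 were alternatives, in R 4.3.3. The edgeR test was checked on simulated data. CPM were scaled by TMM factors, and log2 values used CPM + 0.5. Permutation tests were run in Python 3.11.15, with ranks for Spearman's rho from scipy 1.17.1. Where nothing says otherwise, each numbered mouse is taken as 1 sample. No libraries agreed within sampling noise, which bears only on whether a library was entered more than once. With 1 tumour per mouse, p-values measure the spread between mice and between tumours together. Precision is limited by 13529204 to 20857918 counts per library, and Lmod1 had only 6 to 67 counts. The members, the gene lists and the tests were chosen with earlier results of these data known. The genes named beyond the members are the 10 with the highest r with the members' mean, up to 4 of the highest mean RPKM per list, and any list gene past the threshold; genes named outside this rule are marked as such where they appear. Alternatives were other scaling, filters, tools, a replicate block and leaving out tumours.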

Additional observations from a re-analysis of the deposited data

Results flagged for a closer look

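Among 30 groups of tumours (10 members in 3 genotypes), 4 held a tumour far from the rest of its group; chance gives about 1 group in 20, and the members are correlated. Cnn1 in wt 5 was at 34.9 CPM, where the next wt tumour was at 11.6. Des in wt 5 was at 56.1 CPM, the next at 30.9. Smtn in hom 3 was at 16.8 CPM, the next lowest hom tumour at 23.8. Synm in hom 1 was at 11.7 CPM, the next at 4.7. Each is 1 library, and no cause was tested.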

How the results depend on the processing

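Over 27 settings of each comparison the members past the threshold stayed at 0, with a lowest adjusted p of 0.619 in het against wt, 0.218 in hom against wt and 0.9 in hom against het. Of 270 member values per comparison, 5, 22 and 15 changed sign; the cause was not tested. A single value had an unadjusted p below the threshold, Actg2 in het against wt without wt 1 and wt 2 (edgeR adjusted p = 0.619). In hom against wt, limma-voom gave -0.04 for Lmod1, -0.02 for Myh11 and -0.21 for Synm. Without wt 1 and wt 2, Myh11 was at -0.11 and Synm at -0.13, and the exact permutation scale gave -0.132 for Synm. In hom against het, limma-voom gave -0.05 for Actg2 and -0.11 for Des, and the exact permutation scale -0.044 and -0.12.

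With each tumour left out in turn, the log2 fold change in het against wt ranged from -0.79 to 0.04 for Cnn1, -0.11 to 0.03 for Smtn and -0.46 to 0.07 for Synm. In hom against wt it ranged from -0.13 to 0.01 for Acta2, -0.21 to 0.21 for Lmod1, -0.24 to 0.23 for Myh11, -0.55 to 0.30 for Synm and -0.27 to 0.04 for Tagln. In hom against het it ranged from -0.09 to 0.25 for Actg2, -0.37 to 0.12 for Cnn1, -0.23 to 0.29 for Des, -0.03 to 0.65 for Myl9 and -0.35 to 0.49 for Synm. Over all genes, hom against wt called 1 gene, 1 to 2 with a tumour left out and 22 with DESeq2. In hom against het it called 1 gene, and 0 in a fit of only the groups compared. Allowing 1 mismatch in the CArG box moved the promoters with a box from 1 to 4 of 7.

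In their deviations from the genotype means, same-numbered tumours correlated between -0.473 and 0.344, and differently numbered ones between -0.613 and 0.674. This gave no sign of pairing by number, but it cannot exclude a litter or batch shared by the same number. With the replicate number as a block, 2 genes were called in hom against wt and 0 in hom against het, 0 of 30 member values changed sign, and the lowest adjusted p in edgeR was 0.493. Depth limits Lmod1 most.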

Other observations

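The genes most like Myl9 were looked for after its values were seen, by Pearson's r of log2 levels over 17 tumours, as a description. The closest were S100g (a calcium-binding protein of the absorptive epithelium, r = 0.925), Vstm2b (0.915), Sprr3 (0.908) and Plk5 (0.896). Cers4, Lipf, Cryab, Foxa2, Wnt11 and Abcc12 followed with r from 0.888 to 0.874. None of these 10 is on the lists of smooth muscle genes used here.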
